A study of Mus musculus with 23 samples.

Results

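The 41 genes described here encode the machinery of autophagy and mitophagy. They were chosen by function, with earlier results of these data known, from a list of 41 mouse gene symbols. The symbols were looked up in a deposited table of expected read counts for 20308 genes. Of these symbols 40 were found as listed, and Atg101 was found under the older symbol 9430023L20Rik, which RefSeq gives as its synonym. All 41 genes passed the filter on low counts, as did 13412 genes of the whole table.

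The counts came from RNA sequencing of the ventral prostate of C57BL/6J mice in 23 libraries, each taken as 1 mouse. The control diet held 4 mg folic acid per kg and the enriched diet 24 mg per kg, and both were given from before birth and for life. The control diet groups were 4 intact mice, 3 mice at 3 d after castration and 4 mice at 10 d after castration. The folic acid diet groups were 4 intact mice, 4 mice at 3 d and 4 mice at 10 d. Castration, which removes testicular androgens, was done at 7 weeks of age, the age at which the glands of intact mice were taken. The castrated mice were therefore older by the days since surgery, and no group had a sham operation, so androgen loss, surgery and age cannot be told apart. The labels name no litters, and mice of a litter would share their diet, so litter and diet cannot be told apart either. All groups carried the same inbred background, with no transgene or deleted gene named.

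Autophagy encloses cytoplasm in a double membrane, the autophagosome, and delivers it to the lysosome for breakdown. An initiation kinase complex starts the process, a lipid kinase complex built on Becn1 makes phosphatidylinositol 3-phosphate on the growing membrane, WIPI proteins bind that lipid, and ubiquitin-like conjugation attaches proteins of the LC3 and GABARAP family to the membrane. Cargo receptors tie ubiquitin-tagged proteins or whole organelles to that family, and mitophagy is the form that removes mitochondria. The ventral prostate is an androgen-dependent secretory gland that shrinks after castration. RNA levels were measured here, and protein levels and autophagic flux were not.

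The libraries held 6.38 to 15.6 M counts each. Levels are normalised counts per M reads (CPM) scaled by TMM factors, which set the bulk of the genes equal between libraries, so every change below is relative to that bulk. The transcript of the secretory gene Sbp alone took 49.3% to 59.8% of the counts of an intact library and 4.78% to 16.2% at 10 d. When libraries are scaled by their totals alone, the median over all tested genes is shifted up by 0.73 and 1.15 on the log2 scale at 3 d and 10 d on the control diet, and by 0.80 and 1.31 on the folic acid diet. On that scale each member called lower had a positive log2 change instead, except Atg3 at 3 d on the control diet (-0.15, not called). A gene is called when its adjusted p (edgeR quasi-likelihood test, Benjamini-Hochberg over all 13412 genes) is under 0.05. In whole tissue, fewer cells of a type and less RNA per cell cannot be told apart. All 8 luminal epithelium markers were detected, with summed levels of 3958 to 5805 CPM over all libraries, and the 7 seminal vesicle markers summed to at most 1.76 CPM. The 10 macrophage markers summed to 48.0 to 101 CPM in libraries of intact mice, to 134 to 260 CPM after 3 d and to 135 to 347 CPM after 10 d, none of them at 0 in all libraries of a group. Of those 10 markers, 5 and 4 were called higher at 3 d and 10 d on the control diet, 4 and 6 on the folic acid diet, and none lower. The summed level of 10 skeletal muscle markers was 4661 CPM in control intact replicate 2 and at most 166 CPM in every other library. These sums were 49.4 CPM or more in intact mice and 1.05 to 92.4 CPM after castration, and 2, 9, 2 and 2 of the muscle markers were called lower in the 4 castration comparisons (3 d and 10 d, control diet first). Of the luminal markers, 0, 2, 0 and 0 were called higher and 2 in each comparison lower, and of 8 smooth muscle markers none was called. The 9 fibroblast markers summed to 170 to 972 CPM in intact mice, 253 to 1090 at 3 d and 294 to 741 at 10 d. Of these, 3, 3, 0 and 3 were called higher and 0, 2, 0 and 1 lower: Dcn, Lum and Fbln1 were the higher ones (Lum log2 3.05, 2.87 and 3.61), Col1a1 was lower at 10 d on both diets and Col1a2 at 10 d on the control diet. The part of these cell types in the results below was not tested.

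The first question was whether autophagy genes changed in the gland after castration. A minority of them were called, in both directions relative to the bulk of the genes. At 3 d on the control diet 5 of the 41 members were called (12.2%, against 9.98% of all tested genes), 3 higher (against 3.83% of all genes) and 2 lower (against 6.15%). At 10 d on that diet 8 were called (19.5%, against 16.6%), 3 higher (against 7.15%) and 5 lower (against 9.45%). At 3 d on the folic acid diet 8 were called (19.5%, against 14.3%), 4 higher (against 6.07%) and 4 lower (against 8.27%). At 10 d on that diet 10 were called (24.4%, against 21.9%), 4 higher (against 10.2%) and 6 lower (against 11.7%). Leaving out 1 library at a time gave 2 to 4 calls at 3 d on the control diet. The count was 2 without control 3 d replicate 1 or 4, and 3 without replicate 1 or 3 of control intact. At 3 d on the folic acid diet such fits gave 4 to 7 calls. The count was 4 without folic acid 3 d replicate 1, and 5 without folic acid 3 d replicate 4 or replicate 3 of folic acid intact. No such fit kept the full 5 or 8 calls, and the shares of all genes called in these fits are not given here. With all libraries, the shares called in either direction lay near those of all tested genes, somewhat above them in each comparison. No excess is read from this, as the counts were 5, 8, 8 and 10 members. Members were also measured more closely, with standard errors of 0.19 to 0.21 at the median, beside 0.29 to 0.31 over all genes. The shares of members and of all genes are therefore not like for like. The counts of members by direction are small, and their shares were not compared with those of all genes. The median log2 change of the members was -0.01, 0.02, -0.03 and -0.04 in these 4 comparisons, beside -0.01, 0.05, 0.01 and 0.07 over all genes tested, which the TMM scaling centres near 0. The members' median absolute log2 change of 0.23 to 0.30 lay beside 0.39 to 0.49 over all genes. The libraries of castrated and intact mice did not overlap for 12, 11, 11 and 12 members in the same order, while this held for 25.0%, 24.9%, 17.6% and 20.5% of all genes tested. Summed over the 41 members, the level was 2550 ± 114 CPM (SD, n = 4) in intact mice, 2330 ± 112 (n = 3) at 3 d and 2302 ± 144 (n = 4) at 10 d on the control diet. The corresponding levels on the folic acid diet were 2570 ± 111, 2444 ± 54.5 and 2280 ± 180 CPM (n = 4 each). Such a sum weighs the most abundant members most. Of the 41 members, 19, 21, 19 and 20 had a positive log2 change in the 4 castration comparisons. Under scaling by totals alone 26, 38, 27 and 37 members were called, each of them higher, and their median log2 change was 0.72 to 1.19, where 42.5%, 67.4%, 49.2% and 73.6% of all genes were called.

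**Figure D1:**
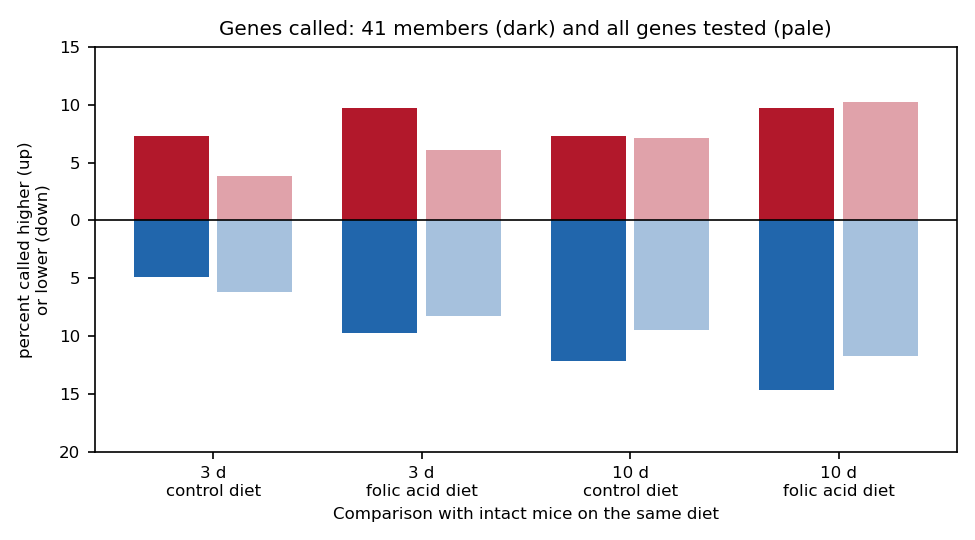
Percent of genes called higher (red, above 0) and lower (blue, below 0) for each castration comparison, with the 41 autophagy and mitophagy genes in the dark bars and all 13412 tested genes in the pale bars. The member shares, 12.2% to 24.4% in either direction, stand close to the shares of all genes, 9.98% to 21.9%, and directions are relative to TMM scaling: with library totals alone the members called were all higher.

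Of the 41 genes, 16 were called in at least 1 castration comparison and 25 in none. Becn1 (lower) and Trp53inp1 (higher) were called in all 4 comparisons. Rb1cc1 (higher), Bnip3l (higher) and Trp53inp2 (lower) were called in 3, and Atg14 (higher), Atg4d (lower) and Wipi1 (lower) in 2. Scaled by library totals, the log2 changes of Becn1, Trp53inp2, Atg4d and Wipi1 were positive. The other 8 genes were called once each. At 3 d the diets shared 3 called members, Rb1cc1, Becn1 and Trp53inp1, which is 60% of the control diet list and 37.5% of the folic acid list, where over all genes the shared calls made up 68% and 47.3%. At 10 d they shared 5, Becn1, Wipi1, Bnip3l, Trp53inp1 and Trp53inp2, which is 62.5% and 50% of the lists, against 70.6% and 53.5% over all genes. No member was called in opposite directions on the 2 diets.

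**Figure D2:**
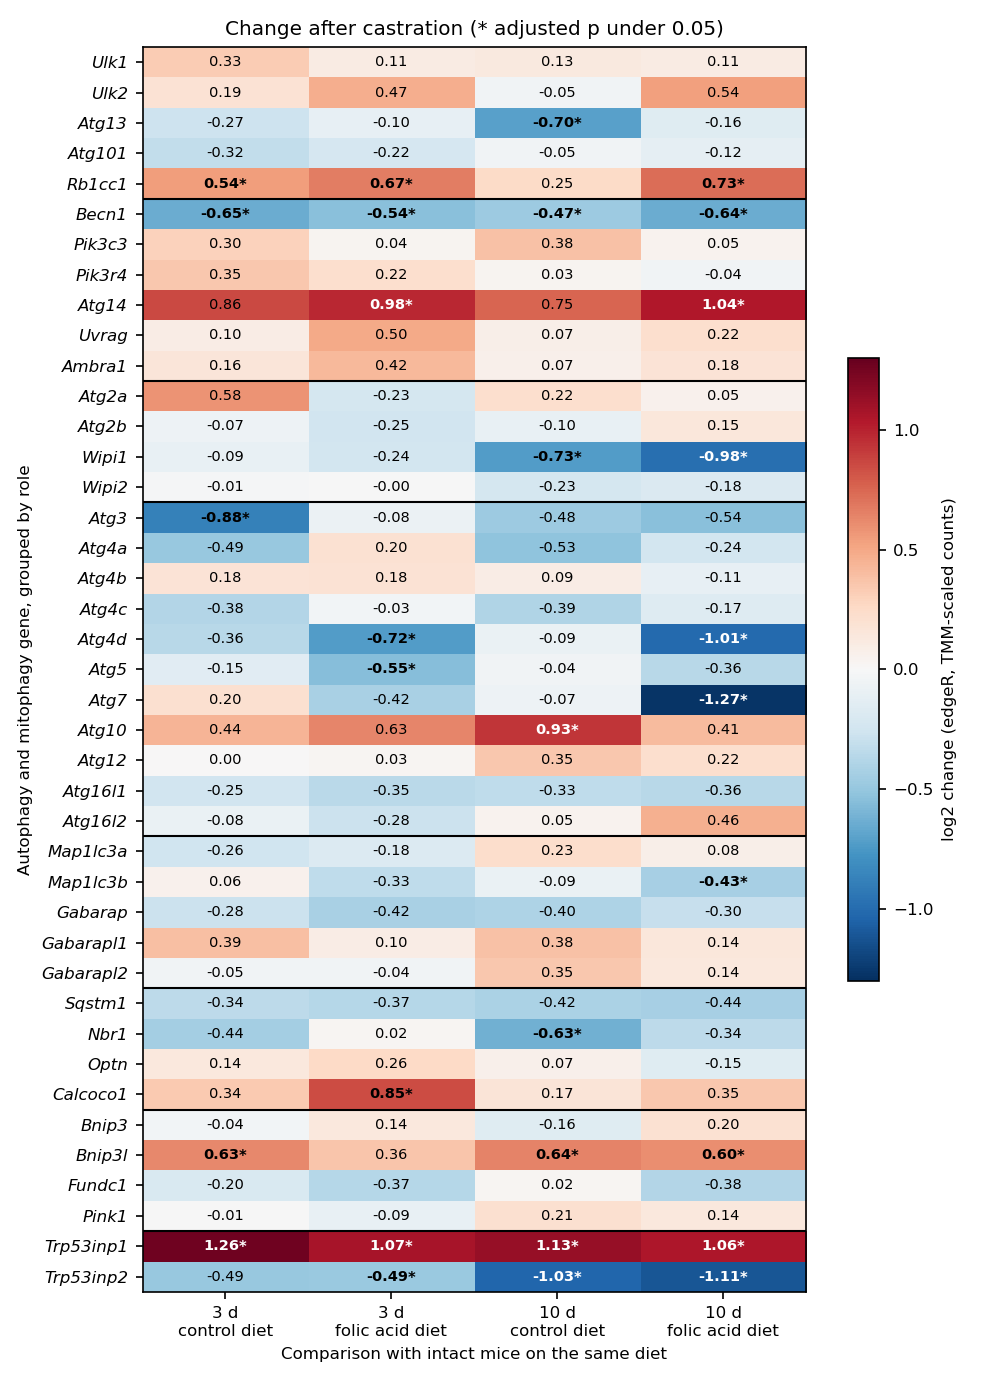
Log2 change of each of the 41 genes (rows, grouped by role between black lines) in each castration comparison with intact mice on the same diet (columns). An asterisk marks an adjusted p under 0.05, and red and blue stand for higher and lower relative to TMM scaling (with library totals alone, all log2 changes but 1 in the first column were positive). Becn1 is blue and Trp53inp1 red in all 4 columns, and most other rows are pale.

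For 4 of the 8 members called in at least 2 comparisons, Atg14, Atg4d, Wipi1 and Trp53inp2, the 250 bases before the RefSeq start (GRCm38.p6) are given 5′ to 3′ on the strand of the gene, because these are the members of that group with a matched RefSeq promoter. Capitals mark the androgen response half-site AGAACA or its reverse complement TGTTCT. The regions are chr14:47568435-47568684 for Atg14 (minus strand), chr9:21265035-21265284 for Atg4d (plus strand), chr11:109611390-109611639 for Wipi1 (minus strand) and chr2:155381606-155381855 for Trp53inp2 (plus strand). For Atg14, Wipi1 and Trp53inp2 the RefSeq start lies inside the span that GENCODE M21 gives the gene.
Atg14: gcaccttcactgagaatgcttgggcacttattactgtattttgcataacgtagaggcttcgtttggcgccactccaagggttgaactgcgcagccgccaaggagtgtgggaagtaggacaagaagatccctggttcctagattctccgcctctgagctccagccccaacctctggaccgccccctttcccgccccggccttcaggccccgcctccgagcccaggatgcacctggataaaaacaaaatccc
Atg4d: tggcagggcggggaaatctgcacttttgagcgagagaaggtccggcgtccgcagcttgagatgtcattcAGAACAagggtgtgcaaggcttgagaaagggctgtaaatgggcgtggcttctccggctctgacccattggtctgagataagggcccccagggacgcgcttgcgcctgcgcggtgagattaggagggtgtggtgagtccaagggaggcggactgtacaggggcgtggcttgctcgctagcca
Wipi1: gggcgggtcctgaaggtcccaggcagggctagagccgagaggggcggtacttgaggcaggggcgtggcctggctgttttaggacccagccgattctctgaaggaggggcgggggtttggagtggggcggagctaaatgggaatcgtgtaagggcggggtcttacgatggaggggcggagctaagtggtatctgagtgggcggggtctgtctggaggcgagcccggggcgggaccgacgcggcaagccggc
Trp53inp2: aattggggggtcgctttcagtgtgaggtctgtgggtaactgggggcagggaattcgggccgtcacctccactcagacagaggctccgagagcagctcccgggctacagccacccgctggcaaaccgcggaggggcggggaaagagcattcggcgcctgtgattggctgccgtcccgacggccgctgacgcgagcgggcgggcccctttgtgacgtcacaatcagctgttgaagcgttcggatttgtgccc

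In the same window, 36 RefSeq promoters of 33 members were searched on both strands for 4 motifs, beside 32851 promoters of all genes. The androgen response half-site AGAACA was found in 4 member promoters (11.1%, against 16.1% of all promoters). They are those of Atg4d, at 181 bases before the start, and of Atg2b, Atg5 and Optn. The E-box CACGTG, which the lysosomal regulator Tfeb binds, was found in 4 (11.1%, against 6.02%), those of Atg3, Atg5, Atg7 and Bnip3. The hypoxia core ACGTG, which lies within CACGTG, was found in 12 (33.3%, against 16.6%). The FOXO motif GTAAACA was found in none (against 3.17%). These matches describe letters in the window and no binding. RefSeq promoters were not matched for Rb1cc1, Becn1, Pik3c3, Atg12, Atg16l1, Map1lc3a, Bnip3l and Trp53inp1.

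Among the 5 genes of the initiation kinase complex, Rb1cc1 rose and Ulk1, Ulk2 and Atg101 were not called. Rb1cc1 encodes the large scaffold of the complex, also known as FIP200 (GRCm38, chromosome 1, 6206197 to 6276648). Its level on the control diet was 46.8, 47.2, 48.0 and 51.8 CPM in intact mice, 67.5, 70.8 and 73.7 at 3 d, and 57.8, 50.5, 54.7 and 67.9 at 10 d. Its level on the folic acid diet was 41.5, 42.5, 39.9 and 50.4 CPM in intact mice, 61.1, 64.8, 65.3 and 85.4 at 3 d, and 71.9, 56.6, 95.3 and 64.6 at 10 d. Every 3 d library of either diet, and every 10 d library on the folic acid diet, stood above all intact libraries of its diet, while at 10 d on the control diet the groups overlapped. The log2 change was 0.54 ± 0.17 (SE) at 3 d on the control diet (adjusted p = 0.0351), 0.67 ± 0.16 at 3 d on the folic acid diet (adjusted p = 0.00404) and 0.73 ± 0.16 at 10 d on that diet (adjusted p = 0.00106). At 10 d on the control diet it was 0.25 ± 0.16 (adjusted p = 0.314), and the difference between the diets at 10 d did not pass (interaction log2 0.47 ± 0.22, adjusted p = 0.869). The 3 d call on the control diet was lost in 6 of 7 fits that each left out 1 library, all but the one without control intact replicate 4 (log2 0.51 to 0.58, adjusted p up to 0.116). Atg13, which links the kinases to the scaffold, fell at 10 d on the control diet, from 55.7 ± 8.88 CPM (SD, n = 4) to 34.1 ± 9.41 (n = 4), with a log2 change of -0.70 ± 0.19 (adjusted p = 0.00916) that lost its call without control 10 d replicate 1 (-0.57, adjusted p = 0.052) and was 0.41 with library totals alone. In the other 3 comparisons Atg13 lay between -0.27 and -0.10 and was not called. Ulk1, the best known kinase of the complex, lay between 0.11 and 0.33.

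In the class III PI3 kinase complex, Becn1 fell and Atg14 rose relative to the bulk of the genes. Becn1 encodes Beclin 1, the core regulatory subunit shared by the forms of the complex (chromosome 11, 101285952 to 101302286). It stood at 206, 189, 204 and 194 CPM in intact control diet mice, 143, 122 and 113 at 3 d, and 145, 162, 126 and 137 at 10 d. The folic acid diet values were 236, 200, 203 and 202 CPM in intact mice, 128, 160, 154 and 135 at 3 d, and 146, 127, 125 and 141 at 10 d. No library of a castrated mouse reached the lowest intact library of either diet. The log2 changes at 3 d and 10 d were -0.65 ± 0.14 (adjusted p = 0.00246) and -0.47 ± 0.13 (adjusted p = 0.0108) on the control diet, and -0.54 ± 0.13 (adjusted p = 0.0047) and -0.64 ± 0.13 (adjusted p = 0.000562) on the folic acid diet, which is 1.39-fold to 1.57-fold lower. These 4 calls held in every fit that left out 1 library. Library totals as the scale gave 0.09, 0.63, 0.23 and 0.60, below the all-gene shift in each comparison. Exons of Becn1 overlap those of Cntd1, and the strand used for counting is not given in the sources used here, so reads of the pair may not be told apart.

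Atg14 encodes the subunit that directs the kinase complex to the site where autophagosomes form (chromosome 14, 47540893 to 47570649). On the folic acid diet its level was 9.34, 2.99, 6.11 and 11.1 CPM in intact mice, 14.4, 13.6, 13.5 and 16.1 at 3 d, and 18.5, 12.4, 13.6 and 15.4 at 10 d. The control diet values were 7.88, 8.57, 7.76 and 5.26 CPM in intact mice, 11.2, 9.45 and 19.5 at 3 d, and 9.06, 13.6, 12.5 and 14.3 at 10 d. The castrated libraries lay above the intact ones at both times on both diets. The log2 change passed on the folic acid diet, at 0.98 ± 0.31 at 3 d (adjusted p = 0.0326) and 1.04 ± 0.31 at 10 d (adjusted p = 0.0155), and did not pass on the control diet, at 0.86 ± 0.33 (adjusted p = 0.0976) and 0.75 ± 0.31 (adjusted p = 0.0951). The difference between diets was 0.12 ± 0.45 at 3 d and 0.28 ± 0.44 at 10 d (smaller adjusted p = 0.946), so the responses were not shown to differ. Its 3 d call was lost without folic acid intact replicate 2 or 3 or folic acid 3 d replicate 1 or 4, and its 10 d call without folic acid intact replicate 2 or folic acid 10 d replicate 1 (log2 from 0.70 to 1.29, adjusted p up to 0.147). Pik3c3, the catalytic subunit, Pik3r4, Uvrag and Ambra1 were called in none of the 4 comparisons, with log2 changes between -0.04 and 0.50.

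Of the 4 genes for lipid transfer and WIPI proteins, Wipi1 was called and the other 3 were not. Wipi1 encodes a protein that binds the lipid made by the kinase complex (chromosome 11, 109573331 to 109611967). Control diet values were 13.0, 14.5, 17.1 and 8.44 CPM in intact mice, 12.9, 9.83 and 14.5 at 3 d, and 6.92, 10.1, 7.30 and 7.6 at 10 d. Folic acid diet values were 12.5, 15.6, 13.2 and 16.3 CPM in intact mice, 13.0, 13.2, 9.61 and 12.9 at 3 d, and 7.19, 7.63, 8.65 and 5.76 at 10 d. The 10 d libraries were the low ones, apart from the intact ones on the folic acid diet and overlapping them on the control diet. The log2 change at 10 d was -0.73 ± 0.26 on the control diet (adjusted p = 0.048) and -0.98 ± 0.26 on the folic acid diet (adjusted p = 0.00616), and with library totals alone it was 0.37 and 0.25. The control diet call was lost in 6 of 8 fits without 1 library, all but those without control 10 d replicate 2 or without replicate 4 of control intact (log2 -0.89 to -0.58, adjusted p up to 0.185). At 3 d the change was -0.09 ± 0.27 and -0.24 ± 0.26, and neither passed. Wipi2 and the lipid transfer genes Atg2a and Atg2b lay between -0.25 and 0.58.

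Of the 11 genes for ATG12 and LC3 conjugation, Atg3, Atg4d, Atg5 and Atg7 fell in at least 1 comparison relative to the bulk of the genes, and Atg10 rose in 1. Atg4d, one of 4 cysteine proteases that trim LC3 and GABARAP proteins and release them from membranes (chromosome 9, 21265293 to 21277772), was called at both times on the folic acid diet. Its level there was 45.8, 50.8, 49.0 and 39.5 CPM in intact mice, 26.0, 26.9, 33.3 and 26.2 at 3 d, and 26.7, 14.8, 25.1 and 25.6 at 10 d. The control diet libraries gave 35.4, 29.1, 38.7 and 26.7 CPM in intact mice, 33.1, 21.9 and 20.7 at 3 d, and 29.3, 43.3, 24.6 and 24.9 at 10 d. All castrated libraries on the folic acid diet lay below all intact ones, and on the control diet the groups overlapped. The log2 changes were -0.72 ± 0.21 (adjusted p = 0.0197) and -1.01 ± 0.21 (adjusted p = 0.000763) on the folic acid diet, and -0.36 ± 0.23 (adjusted p = 0.376) and -0.09 ± 0.21 (adjusted p = 0.839) on the control diet. In intact mice Atg4d stood higher on the folic acid diet than on the control diet, 46.3 ± 4.95 against 32.5 ± 5.53 CPM (SD, n = 4 each), without overlap, but the difference did not pass (log2 0.51 ± 0.21, adjusted p = 0.756). The difference in its 10 d response between diets was -0.92 ± 0.30 on the log2 scale and did not pass (adjusted p = 0.869). Scaled by library totals, the folic acid changes were 0.06 and 0.23. The 3 d call was lost without folic acid intact replicate 2 or folic acid 3 d replicate 1 or 4 (log2 -0.81 to -0.68, adjusted p up to 0.0611), and the 10 d call without 4 libraries that an earlier analysis described as standing apart (-0.80, adjusted p = 0.0532). Exons of Atg4d overlap those of Kri1.

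The other genes of this group were called once. Atg3, the enzyme that transfers LC3 to its lipid, fell at 3 d on the control diet with levels of 236 ± 42.6 CPM (SD, n = 4) before and 129 ± 44.1 CPM (n = 3) after, a log2 change of -0.88 ± 0.26 (adjusted p = 0.0328). That call was lost in 5 of 7 fits, those without replicate 1 or 4 of control 3 d or without replicate 1, 3 or 4 of control intact (log2 -1.14 to -0.66, adjusted p up to 0.184). Atg5, which is joined to Atg12 in the conjugate that helps LC3 onto membranes, fell at 3 d on the folic acid diet from 55.1 ± 10.4 to 37.5 ± 1.94 CPM (n = 4 each), a log2 change of -0.55 ± 0.17 (adjusted p = 0.0231), lost without folic acid intact replicate 3 or folic acid 3 d replicate 1 or 4 (log2 -0.62 to -0.42, adjusted p up to 0.124). Atg7, the activating enzyme of both conjugation reactions, fell at 10 d on the folic acid diet from 13.1 ± 5.72 to 5.41 ± 2.79 CPM (n = 4 each), a log2 change of -1.27 ± 0.35 (adjusted p = 0.00771), while the libraries of the 2 groups overlapped. That call was lost with the compared groups alone (-1.28, adjusted p = 0.0527) and without the 4 libraries that an earlier analysis described as standing apart (-0.62, adjusted p = 0.386). Atg10, the enzyme that joins Atg12 to Atg5, rose at 10 d on the control diet from 12.8 ± 1.69 to 24.3 ± 9.48 CPM (n = 4 each), a log2 change of 0.93 ± 0.25 (adjusted p = 0.00867), lost without control 10 d replicate 2, whose value was 37.9 CPM (0.63, adjusted p = 0.0856). Under library totals the change of Atg5 was 0.24 and that of Atg7 0.02. Atg4a, Atg4b, Atg4c, Atg12, Atg16l1 and Atg16l2 were called in none of the castration comparisons.

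Of the 5 genes of the LC3 and GABARAP family, the proteins that coat the autophagosome membrane, Map1lc3b was called, at 10 d on the folic acid diet, and the others were not. It went from 184 ± 24.6 to 137 ± 24.3 CPM (SD, n = 4 each), a log2 change of -0.43 ± 0.16 (adjusted p = 0.0483) that was 0.81 with library totals alone. The call was lost without folic acid intact replicate 1, 2 or 3 or folic acid 10 d replicate 1 or 2 (log2 -0.51 to -0.32, adjusted p up to 0.176), and exons of Map1lc3b overlap those of Zcchc14. In the other 3 comparisons Map1lc3b lay between -0.33 and 0.06. The group's median log2 change was -0.05, 0.23, -0.18 and 0.08 at 3 d and 10 d on the control diet and at 3 d and 10 d on the folic acid diet.

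Among the 4 cargo receptors, Nbr1 fell once and Calcoco1 rose once. Nbr1, a receptor for ubiquitin-tagged proteins and peroxisomes, stood at 282 ± 16.4 CPM in intact mice and at 183 ± 34.3 CPM at 10 d on the control diet (SD, n = 4 each), a log2 change of -0.63 ± 0.14 (adjusted p = 0.00121) that held in every fit without 1 library and was 0.49 with library totals alone. Calcoco1, a receptor described for endoplasmic reticulum and Golgi, rose at 3 d on the folic acid diet from 60.2 ± 6.6 to 109 ± 5.85 CPM (n = 4 each), a log2 change of 0.85 ± 0.19 (adjusted p = 0.00238) that also held in every such fit. Sqstm1, which encodes p62, the best known receptor and itself degraded by autophagy, had log2 changes of -0.34, -0.42, -0.37 and -0.44 with adjusted p of 0.262, 0.0788, 0.131 and 0.053, and its castrated libraries did not overlap the intact ones in any of the 4 comparisons. None of those 4 changes passed. Optn lay between -0.15 and 0.26.

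Of the 4 mitophagy genes Bnip3l rose and the other 3 were not called. Bnip3l encodes NIX, a receptor in the outer mitochondrial membrane (chromosome 14, 66985239 to 67008877). Control diet libraries stood at 78.7, 79.3, 93.4 and 66.2 CPM in intact mice, 127, 108 and 133 at 3 d, and 119, 167, 103 and 107 at 10 d. Folic acid diet libraries stood at 72.5, 86.6, 87.4 and 90.4 CPM in intact mice, 114, 106, 82.9 and 129 at 3 d, and 122, 120, 115 and 155 at 10 d. The castrated libraries lay above the intact ones in 3 comparisons, and at 3 d on the folic acid diet replicate 3 lay among the intact ones. The log2 changes were 0.63 ± 0.18 (adjusted p = 0.0175) and 0.64 ± 0.16 (adjusted p = 0.00553) on the control diet, 0.36 ± 0.16 (adjusted p = 0.154) at 3 d on the folic acid diet and 0.60 ± 0.16 (adjusted p = 0.00768) at 10 d on it. The 3 d call was lost without control 3 d replicate 1 or 4 or without replicate 4 of the control intact mice (log2 0.55 to 0.74, adjusted p up to 0.0838). Its relative Bnip3 lay between -0.16 and 0.20, the receptor gene Fundc1 between -0.38 and 0.02, and Pink1, the kinase that marks damaged mitochondria, between -0.09 and 0.21.

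The related genes Trp53inp1 and Trp53inp2 moved in opposite directions relative to the bulk of the genes. Trp53inp1 encodes a stress protein that p53 induces and that binds LC3 (chromosome 4, 11156431 to 11174379). On the control diet its level was 29.5, 27.4, 26.8 and 24.5 CPM in intact mice, 54.5, 50.5 and 89.9 at 3 d, and 73.6, 69.2, 40.2 and 54.6 at 10 d. Folic acid diet levels were 32.9, 26.3, 17.1 and 37.2 CPM in intact mice, 68.2, 49.8, 44.6 and 76.1 at 3 d, and 48.3, 92.4, 44.9 and 50.3 at 10 d. All castrated libraries lay above all intact libraries of their diet. The log2 changes at 3 d and 10 d were 1.26 ± 0.27 (adjusted p = 0.00182) and 1.13 ± 0.25 (adjusted p = 0.00177) on the control diet, and 1.07 ± 0.25 (adjusted p = 0.00429) and 1.06 ± 0.25 (adjusted p = 0.0031) on the folic acid diet, which is 2.08-fold to 2.40-fold higher. These calls held in every fit without 1 library, but without 4 libraries that an earlier analysis described as standing apart, folic acid 10 d replicate 2 among them, the last change was 0.62 (adjusted p = 0.155).

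Trp53inp2 encodes a protein that binds LC3 and GABARAP proteins and moves from the nucleus to autophagosomes (chromosome 2, 155381059 to 155389850). On the control diet its level was 123, 112, 114 and 89.2 CPM in intact mice, 89.4, 61.8 and 82.7 at 3 d, and 64.5, 45.2, 58.1 and 46.2 at 10 d. Levels on the folic acid diet were 111, 102, 108 and 131 CPM in intact mice, 74.0, 80.0, 79.9 and 87.9 at 3 d, and 59.6, 50, 59.2 and 39.7 at 10 d. All 10 d libraries lay below all intact ones on both diets, and at 3 d 1 control diet library reached the lowest intact value. The log2 changes were -0.49 ± 0.17 at 3 d (adjusted p = 0.0701) and -1.03 ± 0.16 at 10 d (adjusted p = 1.43e-05) on the control diet, and -0.49 ± 0.16 at 3 d (adjusted p = 0.0384) and -1.11 ± 0.16 at 10 d (adjusted p = 5.68e-06) on the folic acid diet, or 2.05-fold and 2.16-fold lower at 10 d. Under library totals they were 0.25, 0.08, 0.28 and 0.11. The 10 d calls held in every fit without 1 library, and the 3 d call on the folic acid diet was lost in 6 of 8, all but those without folic acid intact replicate 2 or folic acid 3 d replicate 4 (log2 -0.53 to -0.41, adjusted p up to 0.103).

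**Figure D3:**
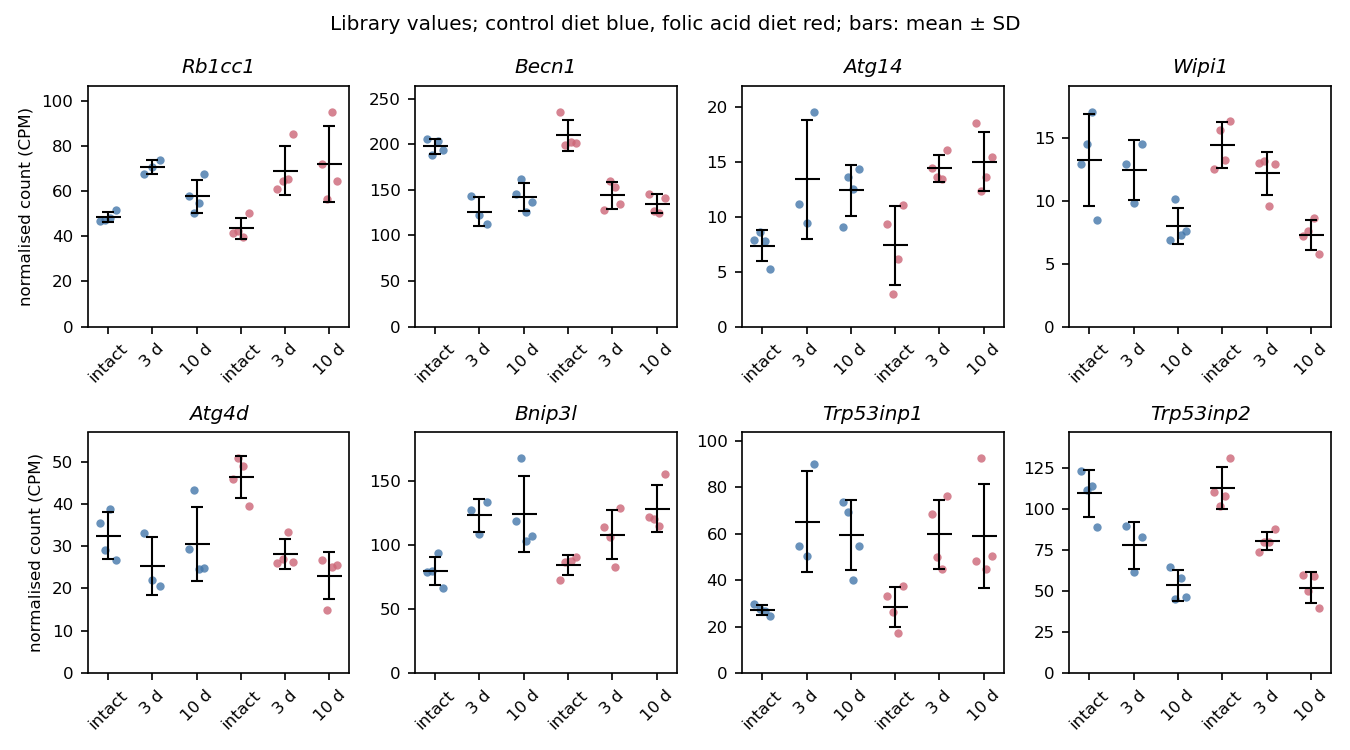
Normalised counts (CPM, linear axes from 0) of the 8 genes called in at least 2 castration comparisons, with 1 point per library, bars for the mean and SD of a group, control diet in blue and folic acid diet in red. Castrated libraries of Becn1 sit at 113 to 162 CPM, below the intact ones at 189 to 236, and those of Trp53inp1 at 40.2 to 92.4, above the intact ones at 17.1 to 37.2. Under library totals as the scale, the 4 lower genes (Becn1, Atg4d, Wipi1 and Trp53inp2) had positive log2 changes.

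The 25 members never called had log2 changes between -0.53 (Atg4a, 10 d, control diet) and 0.58 (Atg2a, 3 d, control diet), with medians of -0.01, 0.05, -0.0027 and 0.05 in the comparisons at 3 d and 10 d on the control diet and at 3 d and 10 d on the folic acid diet. The median standard error of a member's log2 change was 0.19 to 0.21 in these comparisons, beside 0.29 to 0.31 over all genes tested. A p that missed the threshold does not show that these genes kept their level.

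The second question was whether levels went on changing between 3 d and 10 d. No member passed on either diet, where 0.350% of all tested genes on the control diet and 0.634% on the folic acid diet were called by edgeR. At an unadjusted p under 0.05 there were 4 and 8 members, where 10.4% and 11.6% of all genes had such a p. DESeq2 called 0 and 1 members, and 145 and 260 of all genes. The smallest p belonged to Trp53inp2 on both diets, with log2 changes of -0.54 ± 0.17 (adjusted p = 0.223) on the control diet and -0.63 ± 0.16 (adjusted p = 0.0665) on the folic acid diet, where the libraries did not overlap. Wipi1 changed by -0.64 ± 0.27 and -0.74 ± 0.26 (adjusted p = 0.400 and 0.208). Under library totals as the scale, 3 members were called higher on the control diet and 7 on the folic acid diet, where 9.51% and 14.7% of all genes were called.

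The third question was whether the folic acid diet altered these genes. No member was called by edgeR between diets in intact mice (0.0522% of all genes called), at 3 d (0.0671%), at 10 d (0.119%) or for the mean over the 3 states (0.350%). None was called in the interaction of diet and castration at 3 d (0% of all genes) or at 10 d (0.0149%). At an unadjusted p under 0.05 there were 2, 1, 4 and 0 members in the diet comparisons, where 6.24%, 6.5%, 4.86% and 7.04% of all genes had such a p. In the interactions there were 3 and 3, where 4.85% and 5.43% of all genes had one, and DESeq2 called none in any of the 6. Of all genes DESeq2 called 23, 28, 45 and 83 in the diet comparisons and 3 and 9 in the interactions. For the mean over the 3 states every member's 95% interval lay within a log2 change of 1 either way, from -0.56 (lower bound, Atg7) to 0.56 (upper bound, Atg16l2). In single states the intervals were wider, and 40, 39 and 38 of the 41 stayed within that range in intact mice, at 3 d and at 10 d. The bound farthest from 0 was that of Atg7 at 10 d, 9.07 ± 2.22 CPM on the control diet and 5.41 ± 2.79 on the folic acid diet (SD, n = 4 each), a log2 difference of -0.74 with an interval from -1.44 to -0.05 (adjusted p = 0.989). Becn1 differed by 0.07 over the 3 states (interval -0.09 to 0.23) and Trp53inp1 by -0.02 (interval -0.32 to 0.28). The intervals of the interactions were wider than those of the single states. At 3 d 32 of the 41 stayed within a log2 change of 1 either way, and at 10 d 34. Their bounds reached -2.19 (Atg7, 10 d) and 1.53 (Atg3, 3 d), so the interactions were less closely bounded than the diet differences.

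**Figure D4:**
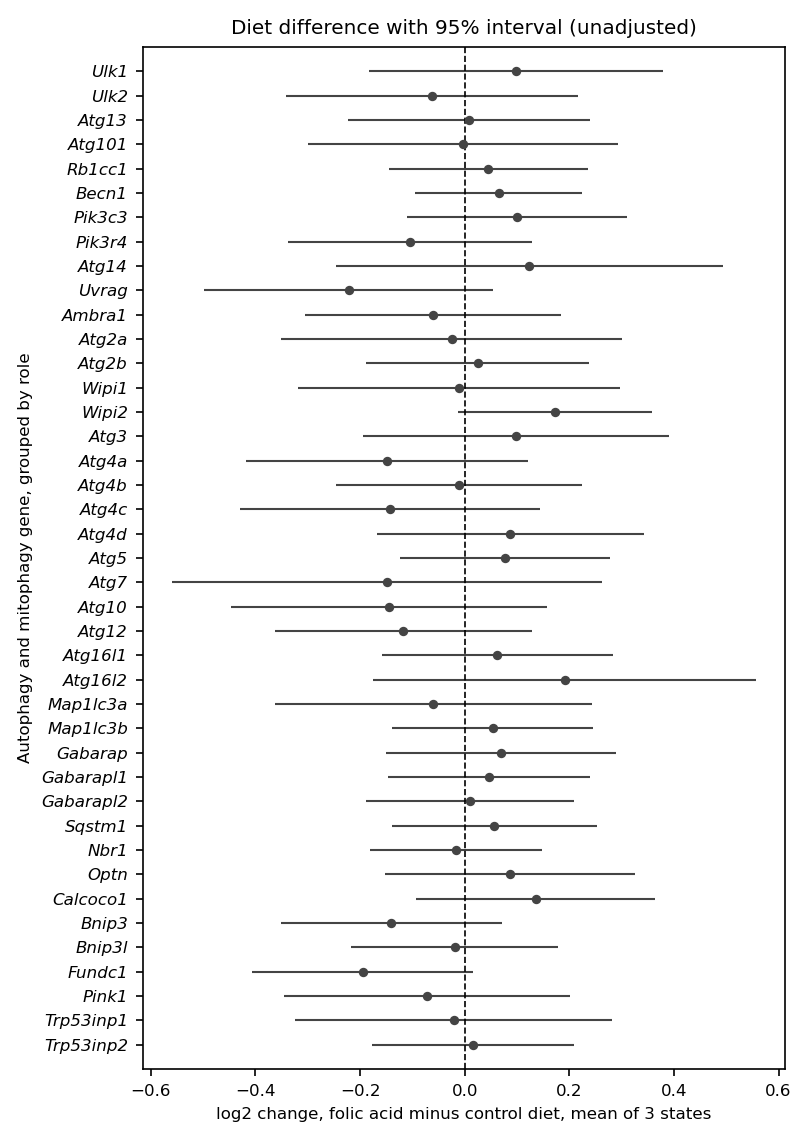
Log2 difference of each of the 41 genes between the folic acid and the control diet, averaged over intact, 3 d and 10 d (points), with its unadjusted 95% interval (lines) and a dashed line at 0. Every interval spans 0, and the points lie between -0.22 (Uvrag) and 0.19 (Atg16l2).

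Genes around the 41 members were read from 8 further lists, whose median log2 changes after castration lay between -0.40 and 0.29. Of 12 other genes of the core machinery, 0, 0, 1 and 1 were called higher and 3, 3, 1 and 2 lower at 3 d and 10 d on the control diet and at 3 d and 10 d on the folic acid diet, an order kept for every list. Over all tested genes 3.83%, 7.15%, 6.07% and 10.2% were called higher and 6.15%, 9.45%, 8.27% and 11.7% lower in that order, against which the few calls of each list are to be read. Atg9a, a lipid scramblase carried on the vesicles that seed autophagosomes, fell at 10 d by 0.88 ± 0.26 and 0.99 ± 0.27 (log2, adjusted p = 0.0179 and 0.00728). Of 14 genes of autophagosome and lysosome fusion, 1, 0, 1 and 1 were higher and 1, 1, 1 and 2 lower. The fusion protein gene Ykt6 fell in all 4 comparisons (log2 -0.58, -0.60, -0.86 and -0.90). Of 12 tested genes of other cargo and endoplasmic reticulum receptors, 1, 1, 1 and 2 were higher and 1, 4, 3 and 5 lower. Tax1bp1, a cargo receptor, rose in all 4 (log2 1.13 ± 0.22, 0.94 ± 0.20, 1.19 ± 0.21 and 0.70 ± 0.20), from 687 ± 62.7 CPM in intact mice to 1506 ± 114 (n = 3) at 3 d on the control diet. Of 21 other mitophagy genes, 0, 1, 0 and 2 were higher and 0, 2, 2 and 0 lower, among them Tomm20, a subunit of the mitochondrial import channel (0.60 ± 0.17 at 10 d on the control diet, adjusted p = 0.0124).

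Of 24 genes of mTORC1 and AMPK control, 1, 4, 2 and 3 were higher and 1, 3, 2 and 2 lower. Ddit4, an inhibitor of mTORC1 also called REDD1, fell from 52.2 ± 15.7 CPM (SD, n = 4) to 13.9 ± 5.78 (n = 3) and 7.56 ± 1.16 (n = 4) on the control diet, and from 60.5 ± 7.02 to 16.9 ± 5.30 and 8.98 ± 3.30 (n = 4 each) on the folic acid diet. Its log2 changes were -1.90 ± 0.30, -2.78 ± 0.29, -1.84 ± 0.27 and -2.75 ± 0.29 (largest adjusted p = 4.43e-05). Fnip2, a folliculin partner, rose in all 4 (log2 1.04, 1.24, 0.88 and 0.87), and Rragd, a small GTPase that activates mTORC1, fell by 1.22 at 10 d on both diets. Of 16 transcription factors of autophagy genes, 1, 1, 1 and 2 were higher and 2, 1, 3 and 2 lower. Atf4, an activator of autophagy genes under stress, fell in all 4 (log2 -0.90, -0.73, -1.05 and -1.07), and Zkscan3, described as a repressor of them, rose in all 4 (log2 0.89, 0.90, 0.65 and 0.68). Of 17 tested hypoxia-induced genes, 0, 1, 1 and 3 were higher and 3, 2, 4 and 4 lower, with Vegfa at -1.01, -1.90, -1.02 and -1.67 and Pgk1 at -0.73, -0.69, -0.76 and -0.91. Kdm3a rose in 3 of the 4 comparisons (log2 0.47, 0.93 and 1.05, with 0.38 not called at 3 d on the control diet), and Ndrg1 rose at 10 d on the folic acid diet (log2 1.80). Of 17 p53-induced genes, a list that holds Trp53inp1 itself, 1, 2, 3 and 2 were higher and 2, 3, 2 and 3 lower. Btg2 (log2 -0.83, -1.51, -0.65 and -1.36) and Perp (log2 -0.86, -1.23, -0.98 and -1.22), both known p53 targets, fell in all 4, and Sesn1, another, rose at 10 d on both diets (log2 0.53 and 0.82). Scaled by totals alone, Ddit4 and Vegfa stayed negative in all 4 comparisons (Ddit4 -1.18, -1.69, -1.09 and -1.55), while each of Atg9a, Ykt6, Rragd, Atf4, Pgk1, Btg2 and Perp was positive in at least 1.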

How the data were processed

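Poly-A RNA of the ventral prostate was copied from random hexamers, per the labels' protocols. Per the submitters' processing notes, the tools included RSEM 1.2.3, Bowtie 0.12.9 and bcl2fastq 2.17.1.14, with genome build mm10. The authors deposited expected counts per gene, not scaled between libraries. Read length, counting strand and gene annotation were not given in the sources used here. Values were rounded, since 19.5% of them were not whole, and 3418 genes had no count after rounding. The table holds 1 column with no sample label, whose name reads control 3 d replicate 2, and it stayed unused.

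The filterByExpr function was applied with a minimum count of 10 and a minimum total of 15, and TMM factors (0.553 to 1.69) scaled the libraries. One edgeR 4.0.16 quasi-likelihood model (robust, 1 mean per group, R 4.3.3) over all 23 libraries tested 12 comparisons, with a biological coefficient of variation of 0.364. Adjusted p values are Benjamini-Hochberg values over 13412 genes, intervals are unadjusted, and a called gene has an adjusted p under 0.05. SE is the standard error of a log2 change and SD the spread of CPM over the libraries of a group. Depth was 6.38 to 15.6 M counts per library. The test was also run on simulated counts with 200 changed genes, and the outcome of that run is not given here.

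All 41 members are accounted for. Members called anywhere get their statistics, those called in at least 2 castration comparisons get library values, and at most 4 called genes with the smallest p were named per further list. Members, lists and alternatives were chosen with earlier results of these data known. Alternatives were other scaling (DESeq2 1.42.0 size factors, library totals), no filter, DESeq2, fits of the compared groups alone, the replicate number as a term, 4 libraries left out together, and each library left out in turn. Gene positions were taken from GENCODE M21 for GRCm38 (mm10), and promoters from RefSeq on GRCm38.p6. No libraries of a group agreed within counting noise. P values treat each mouse as independent. In edgeR they weigh a group difference against a spread between these libraries that is partly pooled over genes.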

Additional observations from a re-analysis of the deposited data

Results flagged for a closer look

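In groups of 4 libraries, 70 pairs of a group and a measure (the 8 genes called most often, the sum of the 41 members and 5 marker sums) were screened for 1 library far from the other 3, taking a gap of over 0.829 of the group's range. Of these, 8 passed, and chance passes about 1 in 20. Becn1 stood at 236 CPM in folic acid intact replicate 1, above the 200 to 203 CPM of the others. Atg4d had 33.3 CPM in replicate 3 of folic acid 3 d (others 26.0 to 26.9) and 14.8 CPM in replicate 2 of folic acid 10 d (others 25.1 to 26.7). Wipi1 had 9.61 CPM in replicate 3 of folic acid 3 d (others 12.9 to 13.2). Trp53inp1 had 92.4 CPM in replicate 2 of folic acid 10 d, where the others lay at 44.9 to 50.3.

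The summed level of the skeletal muscle markers was 4661 CPM in control intact replicate 2 (others of the group 78.4 to 137), 91.2 CPM in folic acid 3 d replicate 3 (others 9.06 to 15.2) and 71.9 CPM in folic acid 10 d replicate 4 (others 1.05 to 9.05). The part of these libraries in the gene changes was not tested beyond leaving them out in turn and leaving out 4 libraries together, control intact replicate 2 among them.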

How the results depend on the processing

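With library totals alone in place of TMM factors, 26, 38, 27 and 37 members were called at 3 d and 10 d on the control diet and at 3 d and 10 d on the folic acid diet, and 3 and 7 at 10 d against 3 d. Then 16 lower calls had positive log2 changes, and Atg3 at 3 d on the control diet stood at -0.15, no longer called. Becn1 was at 0.0887, 0.63, 0.23 and 0.60 in that order. At 10 d on the control diet Atg13 was at 0.41, Wipi1 at 0.37, Nbr1 at 0.49 and Trp53inp2 at 0.0755. At 3 d on the folic acid diet Atg4d was at 0.0641, Atg5 at 0.24 and Trp53inp2 at 0.28. At 10 d on that diet Atg4d was at 0.23, Atg7 at 0.0177, Wipi1 at 0.25, Map1lc3b at 0.81 and Trp53inp2 at 0.11. The shift of all genes on that scale is given with the depth of the libraries.

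Without 4 libraries together (control intact replicate 2, folic acid intact replicate 3, folic acid 10 d replicates 2 and 3), 5 members were called at 3 d and 5 at 10 d on the folic acid diet, fewer than the 8 and 10 with all libraries, with fewer samples. Calls of Atg14, Atg5, Trp53inp2 (3 d, folic acid), Atg14, Atg4d, Atg7, Map1lc3b, Trp53inp1 (10 d, folic acid) and Wipi1 (10 d, control) were then lost. DESeq2 called 1 member at 10 d against 3 d on the folic acid diet. Leaving out each library in turn gave 2 to 4 members called at 3 d and 6 to 8 at 10 d on the control diet, 4 to 7 and 8 to 12 on the folic acid diet, and 0 to 1 at 10 d against 3 d on the folic acid diet. All other diet, interaction and late comparisons stayed at 0. For the fits without 4 libraries or without 1, the share of all genes called is not given here. The member counts of those fits are therefore not set against all genes.

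With the replicate number as a block, 6, 7, 8 and 9 members were called after castration, and the calls of Wipi1 at 10 d on the control diet (-0.73, adjusted p = 0.0557) and Map1lc3b (-0.44, adjusted p = 0.0536) were lost. The share of all genes called with that block is not given here. The replicate numbers were not shown to pair the libraries. Of 55 same-number pairs, 5 deviated together with a correlation over 0.1 (median 0.01), beside 16 of 165 other pairs (median -0.01). The highest correlation was 0.24 for same-number pairs and 0.19 for other pairs, and 7 of 23 libraries correlated best with their own number. Whether libraries shared a batch or litter was not tested. DESeq2 and its size factors lost none of the 31 calls, and DESeq2 called 6, 9, 8 and 12 members after castration where edgeR called 5, 8, 8 and 10. Of all 13412 tested genes DESeq2 called 1677, 2506, 2265 and 3394 there, where edgeR called 1339, 2226, 1923 and 2938. Without the count filter 4 of 31 named calls were lost (Rb1cc1 at 3 d and Wipi1 at 10 d on the control diet, Trp53inp2 at 3 d and Map1lc3b at 10 d on the folic acid diet), and with the compared groups alone 5 were lost (Atg14 at both times, Atg7 and Map1lc3b on the folic acid diet, Wipi1 on the control diet). Where no reason is named, the cause was not tested. Depth limits Atg16l2, Atg7, Wipi1 and Atg14 most, with the lowest total counts of the members.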
